A study of Mus musculus with 8 samples.

Results

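The genes described here serve the use of farnesyl or geranylgeranyl diphosphate outside sterol synthesis. Of them, *Rce1* and *Icmt* act later, on proteins that already carry the prenyl group. The 10 genes (*Ggps1*, *Fnta*, *Fntb*, *Pggt1b*, *Rabggta*, *Rabggtb*, *Dhdds*, *Pdss1*, *Icmt* and *Rce1*) were chosen with earlier results of these data known. Every bead feature whose deposited gene symbol was among these names was taken, which gave 17 of 45281 features on the chip. A feature is a type of bead that carries a single probe. The cells were thioglycollate-elicited peritoneal macrophages of C57/BL6 mice aged 8 weeks, that is, cells drawn into the abdominal cavity by an irritant broth. They were either incubated for 24 h with acetylated LDL (Ac-LDL) at 120 μg/ml, a chemically modified lipoprotein that loads macrophages with cholesterol, or mock treated for the same time. RNA of 4 Ac-LDL and 4 control samples was hybridised to 8 Illumina mouse whole-genome arrays. The labels number biological replicates 1 to 4 in each group without saying which mice, pools or cultures a number stands for, so that P values measure the spread between these samples, which may in part be technical. Replicates 1 and 2 of both groups lay on a first slide and replicates 3 and 4 on a second.

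Farnesyl diphosphate stands at the fork of the mevalonate pathway. Squalene synthase draws it towards cholesterol, while the other users lengthen it to geranylgeranyl diphosphate, to the polyprenyl chain of dolichol or to the tail of coenzyme Q, or attach it to proteins. Prenylation places a farnesyl or geranylgeranyl group on a cysteine near the carboxyl end of Ras, Rac and Rab GTPases, lamins and G protein gamma subunits, and thereby lets them bind membranes. In macrophages these GTPases serve phagocytosis, vesicle traffic and the actin cytoskeleton.

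A feature counted as detected on an array where its detection P value, its rank against the negative controls of that array, was at most 0.05, and it was tested where it was detected on at least 4 of the 8 arrays. By this rule 12 of the 17 member features and 8 of the 10 genes were tested, against 17122 of all 45281 features. *Ggps1* and *Pggt1b* were detected on no array and could not be compared. Of the deposited probes, 6 are printed here because the reach of the comparison turns on them. They are both silent *Ggps1* probes, the silent *Dhdds* probe, the only *Pdss1* probe, the probe by which *Rabggtb* was given and an *Icmt* probe detected on 5 of 8 arrays. Capitals mark the first ATG in *Ggps1* ILMN_2621613, from which 15 codons run to the end of the probe without a stop, and the 10 bases of *Icmt* ILMN_1239023 that lie in the upstream exon, the other 40 lying in the next.
Ggps1 ILMN_2621613: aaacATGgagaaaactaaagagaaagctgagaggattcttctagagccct
Ggps1 ILMN_1237585: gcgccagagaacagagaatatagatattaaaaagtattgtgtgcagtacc
Dhdds ILMN_2691067: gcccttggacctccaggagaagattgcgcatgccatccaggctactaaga
Pdss1 ILMN_2986605: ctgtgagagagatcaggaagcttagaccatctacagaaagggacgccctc
Rabggtb ILMN_2589819: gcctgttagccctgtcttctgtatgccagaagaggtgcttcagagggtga
Icmt ILMN_1239023: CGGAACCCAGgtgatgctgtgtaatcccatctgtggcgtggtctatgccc

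Every printed probe is 50 bases long and is given 5′ to 3′. Within their transcripts, the *Ggps1* probes begin at bases 216 and 921, the *Dhdds* probe at 529, the *Pdss1* probe at 1251, the *Rabggtb* probe at 945 and the *Icmt* probe at 686. The deposited annotation places the *Ggps1* probes at chr13:14150086-14150135 and chr13:14146112-14146161 on the minus strand, the *Rabggtb* probe at chr3:153570590-153570639 on the minus strand, the *Pdss1* probe at chr2:22795395-22795444 on the plus strand and both parts of the *Icmt* probe within chr4:151674854-151677170 on the plus strand. It names no genome build for these positions and gives none for the *Dhdds* probe.

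Between 36.8% and 38.5% of all features were detected per array, and the median deposited intensity was 42.5 to 46.4. Of 10 macrophage markers, 9 were detected on all 8 arrays, and the other, *Msr1*, a scavenger receptor that binds Ac-LDL, was detected on none. The lysozyme symbols *Lyz2*, *Lyzs* and *Lyz* were counted as separate markers. *Msr1* was read by a single feature, and a silent feature does not show that the transcript was absent. All 4 fibroblast markers and 2 of 3 mesothelial markers were also detected on every array. None of the T cell, mast cell or eosinophil markers was tested, and 1 of 3 B cell markers on the chip (*Ms4a1*) and 1 of 3 neutrophil markers (*S100a8*) were. The summed deposited intensity of the fibroblast list, not normalised, was 10443.9 to 14341.7 on control and 10066 to 11653.4 on Ac-LDL arrays. The total over all features was 11032000 to 13516900 on control and 11175400 to 12261000 on Ac-LDL arrays. No marker of any list was called between the groups. The part of these cells in the values that follow was not tested. The RNA is that of whole samples, so that fewer cells of a type and less RNA per cell cannot be told apart in any value given here.

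None of the 8 measured genes passed the test for a change with Ac-LDL. By limma's moderated test with Benjamini-Hochberg adjustment over all tested features, 0 of 8 were called at an adjusted P under 0.05, where 0.0409% of all tested features were called (1 higher and 6 lower). At an unadjusted P under 0.05 the count was 0 of 8 against 5.2% of all features, and an unpaired *t*-test, the kind named in the methods, gave 0 both with and without adjustment. Blocking on the replicate number left the count at 0 of 8, while the share of all features called went up to 0.444%. On the normalised log2 scale, 3 genes had a higher and 5 a lower mean with Ac-LDL, and their median change was -0.03, beside 0.0012 over all tested features. The changes lay between -0.11 for *Rabggta* and 0.17 for *Pdss1*. The 95% confidence intervals of the 8 fold changes reached from 0.743, the lower bound of *Dhdds*, to 1.36, the upper bound of *Pdss1*. The groups overlapped for all 8 genes. They did not overlap for 3.8% of all tested features, a share too small for 0 of 8 to set these genes apart.

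**Figure D1:**
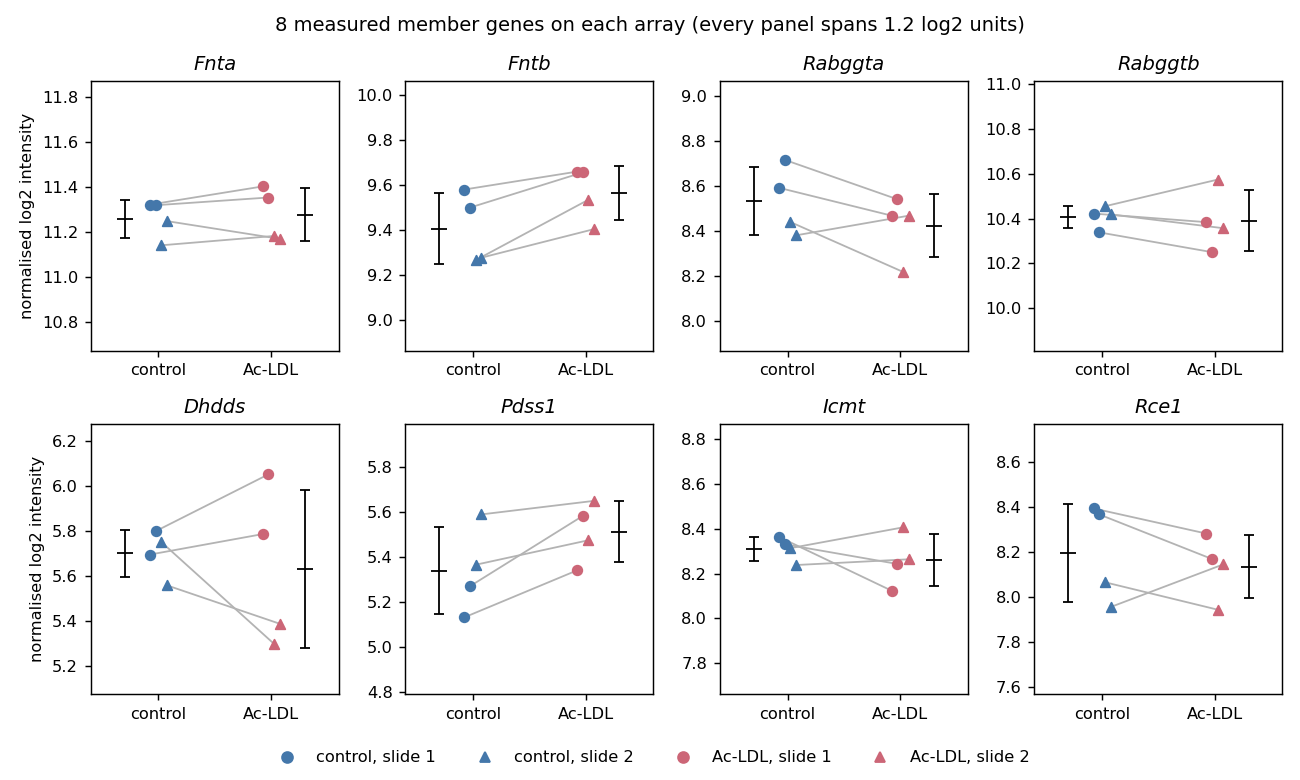
Normalised log2 intensity of the 8 measured genes on each array (y axis) in control and Ac-LDL samples (x axis), each gene by its brightest tested feature. Grey lines join arrays with the same replicate number, circles are slide 1 and triangles slide 2, and the black marks beside the points are the mean and SD of 4 arrays. The groups overlap in all 8 panels, and *Fntb* and *Pdss1* are the genes whose 4 lines all go up.

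*Ggps1* encodes geranylgeranyl diphosphate synthase, which lengthens farnesyl diphosphate by an isoprene unit and so supplies every geranylgeranylation. The deposited, linear intensity of ILMN_2621613 was 43.6, 35.1, 43.1 and 43.0 on control arrays 1 to 4 and 36.9, 48.0, 42.4 and 39.7 on the Ac-LDL arrays. That of ILMN_1237585 was 35.8, 34.4, 39.4 and 34.8 in control and 38.1, 37.7, 39.1 and 36.0 with Ac-LDL. All these values lay below the faintest detected feature of their array, which was at 48.4 to 53.8, and the lowest detection P value of either feature was 0.0919. The arrays therefore gave no level for *Ggps1* in either group, and no fold change was computed.

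*Pggt1b* encodes the catalytic beta subunit of geranylgeranyl transferase I, which modifies Rac and Rap GTPases and G protein gamma subunits. Its single feature (ILMN_2666038) had intensities of 38.2, 37.6, 38.6 and 38.4 in control and 30.2, 34.5, 33.3 and 42.0 with Ac-LDL, again under the detection limit on all 8 arrays. The lowest detection P value was 0.34. As for *Ggps1*, the values say nothing on a change. They do not show that the transcript was absent, since *Rabggta* had a silent feature beside a bright one. There, ILMN_1217320 stayed between 41.1 and 51.9 and was detected on no array, while ILMN_1245469 lay between 322 and 468 and was detected on all. For *Dhdds*, the printed probe (40.8 to 48.1) was silent, and the other 2 features were dim (55.9 to 85.5) but detected on all 8 arrays.

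**Figure D2:**
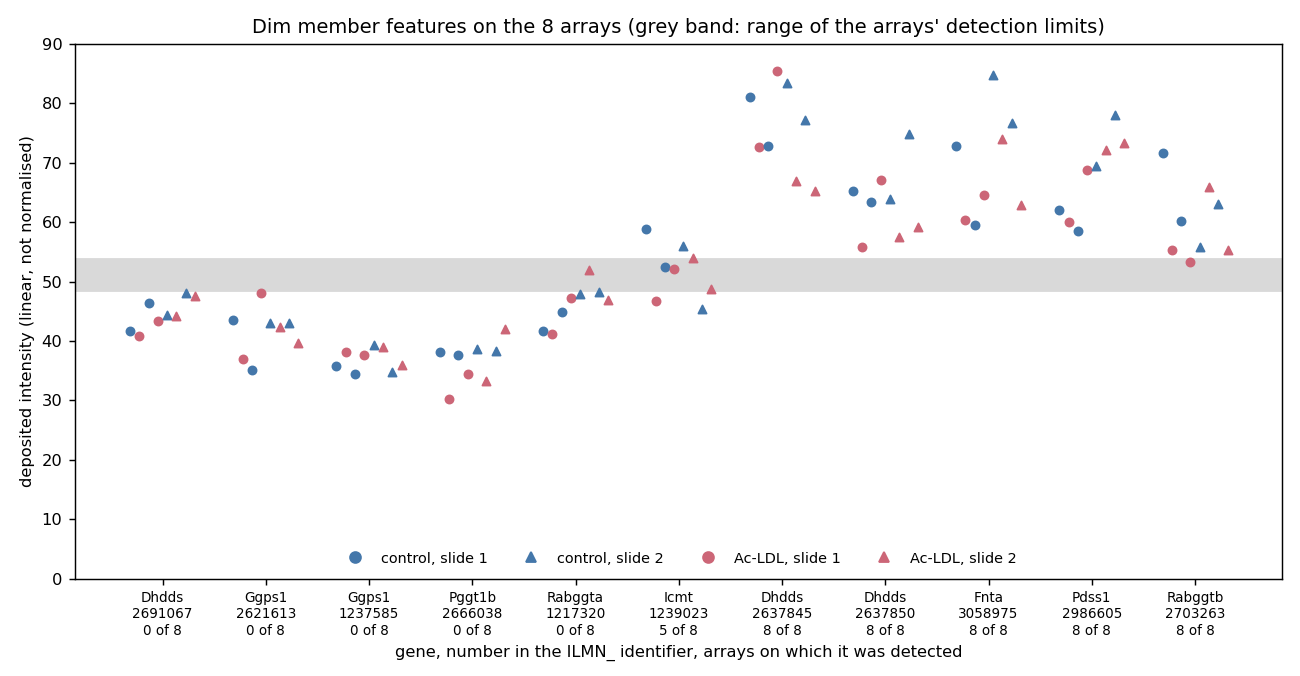
Deposited linear intensity (y axis) of the 11 dimmest member features (x axis, with the number of arrays on which each was detected); colours are the groups, circles slide 1 and triangles slide 2. The grey band spans the faintest detected signal of the 8 arrays, 48.4 to 53.8, and both *Ggps1* features and the *Pggt1b* feature lie under it on every array.

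The subunits that attach the prenyl group were measured in 4 of 5 cases. *Fnta* encodes the alpha subunit that farnesyltransferase and geranylgeranyl transferase I have in common. Its normalised log2 intensity (ILMN_3136196) was 11.32, 11.32, 11.14 and 11.25 on control arrays 1 to 4 and 11.40, 11.35, 11.18 and 11.17 on the Ac-LDL arrays. The groups overlapped almost fully, and replicates 1 and 2 were the higher ones in both. The log2 change was 0.02 (95% confidence interval -0.19 to 0.23, adjusted *P*=0.995 by limma). A second, dim feature (ILMN_3058975) went the other way, from 5.53 ± 0.19 to 5.40 ± 0.10 (mean ± SD, n = 4 each), a change of -0.13 (adjusted *P*=0.979 by limma).

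*Fntb*, the catalytic beta subunit of farnesyltransferase, read 9.58, 9.50, 9.26 and 9.28 in control and 9.66, 9.66, 9.53 and 9.40 with Ac-LDL (ILMN_2670517). Ac-LDL was the higher array in all 4 pairs of equal number, and the groups overlapped because control 1 lay above Ac-LDL 3 and 4 and control 2 above Ac-LDL 4. The log2 change was 0.16 (-0.09 to 0.40, adjusted *P*=0.963 by limma, exact two-sided permutation test *P*=0.2). Blocked by replicate number, its adjusted *P* was 0.424. All 4 pairs were higher with Ac-LDL for 11.5% of the tested features, and for 2 of the 8 genes, *Fntb* and *Pdss1*. No gene was lower in all 4 pairs. In either direction, 2 of the 8 genes thus went the same way in every pair, beside 22% of all tested features.

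*Rabggta* and *Rabggtb* encode the alpha and beta subunits of Rab geranylgeranyl transferase, which works on Rab proteins presented by an escort protein. *Rabggta* was at 8.59, 8.72, 8.44 and 8.38 in control and at 8.47, 8.54, 8.22 and 8.47 with Ac-LDL. Replicates 1 to 3 were lower with Ac-LDL and replicate 4 was higher, and the groups overlapped. The log2 change, the lowest of the 8, was -0.11 (-0.36 to 0.14, adjusted *P*=0.986 by limma). *Rabggtb* (ILMN_2589819) was at 10.42, 10.34, 10.45 and 10.42 in control and at 10.38, 10.25, 10.57 and 10.36 with Ac-LDL. The Ac-LDL arrays lay on both sides of the control arrays, with a log2 change of -0.02 (-0.23 to 0.20, adjusted *P*=0.996 by limma). The other *Rabggtb* feature (ILMN_2703263), which carries the gene's symbol but no RefSeq transcript, was dim and changed by -0.13 (-0.44 to 0.18).

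After prenylation, *Rce1* cuts off the last residues of the CAAX motif and *Icmt* methylates the exposed cysteine. *Rce1* (ILMN_1235234) was at 8.39, 8.37, 8.06 and 7.95 in control and at 8.28, 8.17, 7.94 and 8.14 with Ac-LDL. It was lower with Ac-LDL in replicates 1 to 3 and higher in replicate 4, a log2 change of -0.06 (-0.34 to 0.22, adjusted *P*=0.993 by limma). *Icmt* (ILMN_2791410) was at 8.36, 8.33, 8.31 and 8.24 in control and at 8.12, 8.24, 8.41 and 8.26 with Ac-LDL. The control arrays fell within the range of the Ac-LDL arrays, and the change was -0.05 (-0.26 to 0.15, adjusted *P*=0.99 by limma). The printed *Icmt* probe across the exon junction was at 4.83 ± 0.25 in control and 4.76 ± 0.10 with Ac-LDL (mean ± SD, n = 4 each), a change of -0.07 (-0.36 to 0.22).

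*Dhdds* and *Pdss1* act in the branches that build long chains. *Dhdds* is the catalytic subunit of the cis-prenyltransferase that makes the dolichol backbone, the lipid on which N-glycans are assembled. Its brightest feature (ILMN_2637845) was at 5.70, 5.80, 5.75 and 5.56 in control and at 5.79, 6.05, 5.30 and 5.39 with Ac-LDL. The Ac-LDL arrays spread on both sides of the control arrays, upwards on the first slide (mean change 0.17) and downwards on the second (-0.31), and this difference between slides was not tested. Over all 8 arrays the change was -0.07 (-0.43 to 0.29, adjusted *P*=0.993 by limma). The other detected feature (ILMN_2637850) shares 46 of its 50 bases with it and is no independent measurement, and its change was -0.15, with -0.02 on the first slide and -0.29 on the second.

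*Pdss1* is a subunit of the synthase that makes the side chain of coenzyme Q, the electron carrier of the respiratory chain. It was at 5.13, 5.27, 5.37 and 5.59 in control and at 5.34, 5.58, 5.47 and 5.65 with Ac-LDL (ILMN_2986605). Ac-LDL was higher in all 4 pairs, yet the lowest Ac-LDL array lay under 2 of the control arrays. Its change was 0.17 (-0.09 to 0.44, adjusted *P*=0.963 by limma, *P*=0.229 by an exact two-sided permutation test). Blocked by replicate number, it had an adjusted *P* of 0.402. The feature was close to the detection limit, with deposited intensities between 58.4 and 78.1.

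For 7 of the 8 genes, all but *Icmt*, the difference between the slides was larger than the change with Ac-LDL, and 68.7% of all tested features showed the same. In a fit with group and slide, *Rce1* was the only gene called between the slides, with a log2 difference of -0.28 for the second slide against the first (adjusted *P*=0.0424 by limma), where 23.6% of all tested features were called. *Fntb* differed by -0.23 (adjusted *P*=0.0506) and *Dhdds* by -0.33 (adjusted *P*=0.0635), both by limma. The median absolute slide difference was 0.20 over the 8 genes and 0.17 over all tested features, and the median absolute change with Ac-LDL was 0.07 and 0.09. With the slide as a block, which holds this difference apart, 0 of 8 genes were called. The macrophage markers also differed between the slides. Their summed deposited intensity, not normalised, was 68225.7 to 76637.5 on the first slide and 88716.1 to 95723.7 on the second. By normalised values 6 of 9 were called higher on the second, among them *Emr1* with a log2 difference of 1.19 and *Mrc1* with 1.07. The lysozyme symbols differed in this: *Lyzs* was called, at 0.61, while *Lyz2* at 0.14 and *Lyz* at 0.04 were not. Of the fibroblast markers 1 of 4, *Col1a1*, was called, at -0.41. The part of these markers in the slide differences of the 8 genes was not tested. Each slide carried 2 arrays of either group, so that slide and treatment were balanced.

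**Figure D3:**
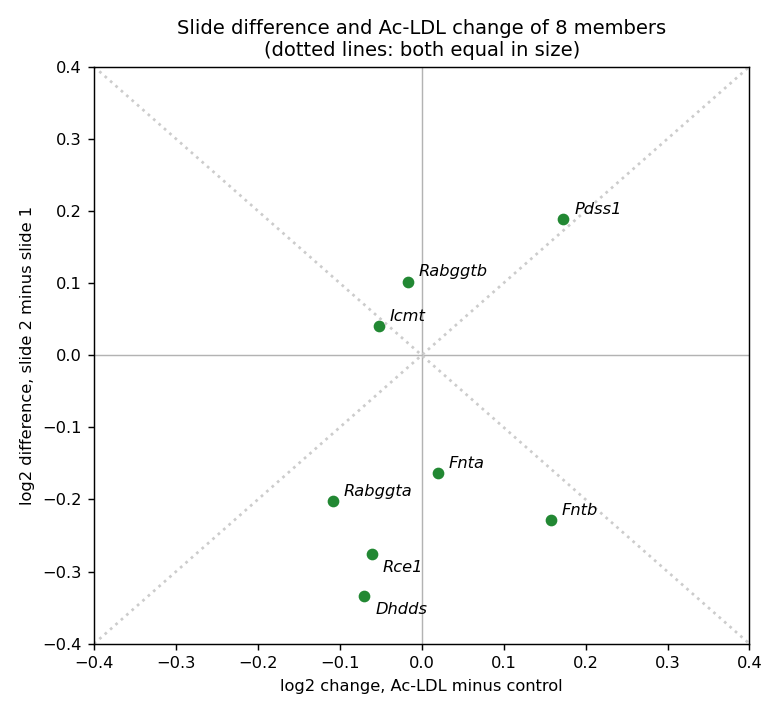
Log2 difference of slide 2 against slide 1 (y axis) and log2 change with Ac-LDL (x axis) of the 8 measured genes; dotted lines mark differences equal in size. All genes but *Icmt* lie above or under the dotted lines, where the slide difference is the larger, and *Dhdds* and *Rce1* lie lowest at -0.33 and -0.28.

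The question that the comparison poses for these genes is whether they follow the genes that supply their substrate when macrophages are loaded with cholesterol. Of 7 listed supply and sterol genes with a feature on the chip, 6 were tested, and all 6 had no overlap between the groups and lower values with Ac-LDL, with a median log2 change of -1.24. This list, too, was chosen with earlier results of these data known. *Acat2*, *Mvd* and *Fdps* were called lower, and with the replicate block *Sqle* as well. These calls depended on the setting, since no feature was called by the *t*-test, without a detection filter or with some arrays left out. *Fdps*, the synthase of farnesyl diphosphate itself, went from 11.17, 11.24, 11.85 and 11.48 in control to 10.05, 9.94, 9.70 and 9.29 with Ac-LDL, a log2 change of -1.69 (-2.12 to -1.26, adjusted *P*=0.028 by limma). A dimmer *Fdps* feature, detected on 5 arrays, changed by -1.07 (-1.48 to -0.65). It was not called (adjusted *P*=0.11 by limma) except with the replicate block (adjusted *P*=0.0189 by limma). *Idi1* was detected on 3 arrays and not tested, and *Fdft1*, the squalene synthase, was not analysed here.

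The change of *Fdps* (-1.69) and that of *Fntb* (0.16), the enzyme subunit that consumes its product, differed by -1.85, a pair chosen after the values were seen because *Ggps1* had no signal. Within the slides the difference of the changes was -1.33 on the first and -2.38 on the second. It is given as a description. The gap between the *Fdps* groups, 10.05 to 11.17, was wider than the whole range of *Fntb*, 9.26 to 9.66, which fixes the outcome of a test.

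**Figure D4:**
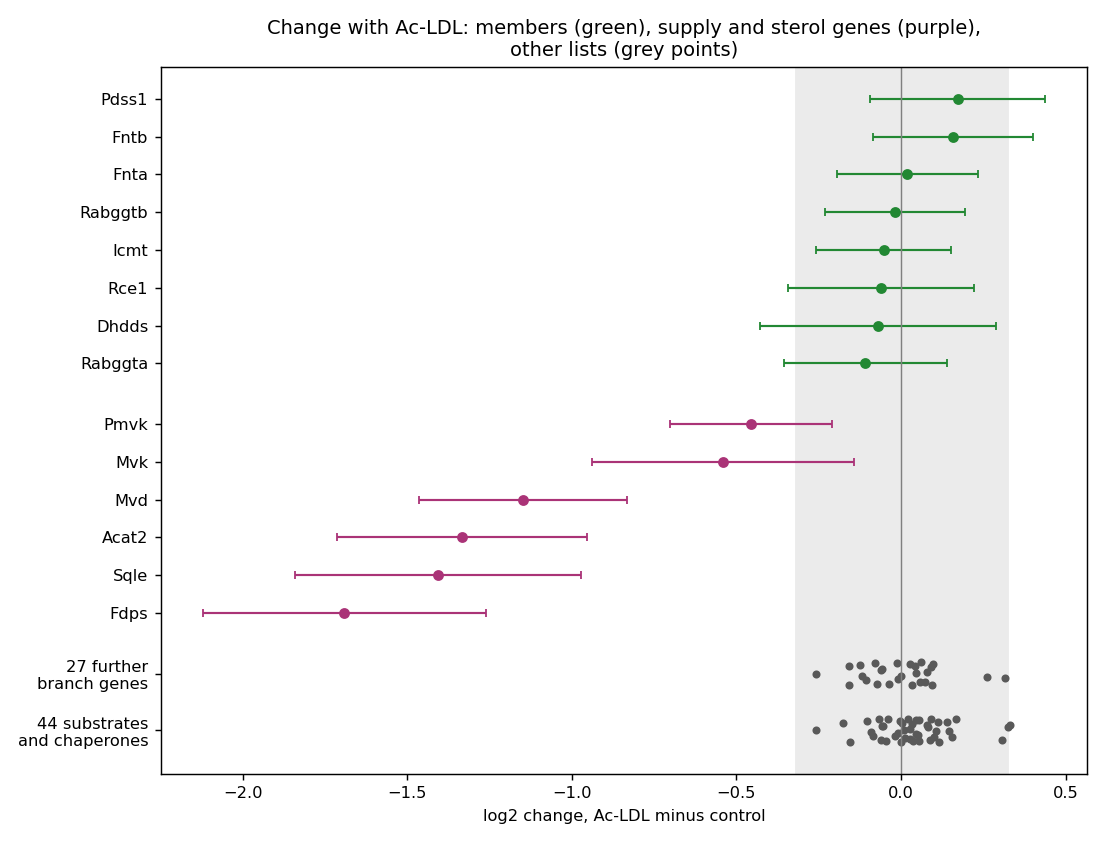
Log2 change with Ac-LDL (x axis) of the 8 measured genes (green), of 6 supply and sterol genes (purple), each with its 95% confidence interval, and of 27 further branch genes and 44 prenylation substrates and chaperones (grey points, 1 per gene). The shaded band holds the central 95% of all tested features, from -0.32 to 0.32; all 8 green points lie in it and all 6 purple points to its left.

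Further genes of the non-sterol branch were taken as a list of 31, of which 29 had a feature and 27 were tested. It held partners and later steps, such as *Nus1* and *Pdss2*, the partners of *Dhdds* and *Pdss1*, the *Coq* genes of coenzyme Q synthesis and enzymes that use dolichol. By limma 0 of 27 were called, and 2 had an unadjusted *P* under 0.05, both with a higher mean with Ac-LDL, a share near the 5.2% of all tested features. The *t*-test gave 2 as well. The median change was 0.0006, with 14 means higher and 13 lower. *Pcyox1*, the lysosomal oxidase that breaks down prenylcysteine when prenylated proteins are degraded, went from 10.04, 10.08, 10.22 and 10.49 to 10.43, 10.45, 10.54 and 10.68. It was higher in all 4 pairs, and only control 4 reached into the Ac-LDL range. Its log2 change was 0.32 (0.05 to 0.58, adjusted *P*=0.854 by limma, 0.154 with the replicate block).

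*Srd5a3*, the polyprenol reductase that turns the product of *Dhdds* into dolichol, was at 9.71, 9.89, 9.81 and 9.78 in control and at 10.13, 10.08, 10.11 and 9.91 with Ac-LDL. Its groups did not overlap, which held for 1 of the 27 genes by their brightest feature, a share close to the 3.8% of all tested features. *Zmpste24*, a protease of prenylated proteins, changed by 0.03 (-0.23 to 0.30) by its brightest feature, and its groups overlapped. Of its dimmer tested features, 1 changed by 0.17 with overlap and 1 by 0.19 without overlap. The change of *Srd5a3* was 0.26 (0.06 to 0.47, adjusted *P*=0.841 by limma), and the 2 other features of *Srd5a3* changed by 0.17 and 0.22. *Dpm2*, a subunit of dolichol-phosphate mannose synthase, had the next lowest *P* with a change of -0.16 (adjusted *P*=0.962 by limma). *Nus1* changed by 0.04 and *Pdss2* by -0.11. *Chm* and *Chml*, the Rab escort proteins, were detected on too few arrays to be tested.

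Proteins that receive the prenyl group, and their chaperones, formed a list of 51, of which 50 had a feature and 44 were tested. By limma 0 of 44 were called, and 0 of 44 had an unadjusted *P* under 0.05, also by the *t*-test. With the replicate block 4 of 44 had an unadjusted *P* under 0.05, where 13.8% of all tested features had, and 0 were called. The means of 29 were higher and of 15 lower with Ac-LDL, and the median change was 0.03. The lowest *P* values were those of *Rras*, a Ras-related GTPase, at -0.26 (-0.54 to 0.03, adjusted *P*=0.949 by limma), *Rab27a*, a GTPase of secretory vesicles, at 0.33 (-0.09 to 0.74) and *Rac2*, the GTPase of the phagocyte oxidase, at 0.33 (-0.14 to 0.80). These genes were among the 4 with an unadjusted *P* under 0.05 with the replicate block. In that fit the intervals were -0.45 to -0.06 for *Rras*, 0.11 to 0.54 for *Rab27a* and 0.16 to 0.51 for *Rac2*. Their adjusted *P* values were 0.256, 0.199 and 0.135 by limma. *Rac2* differed by 0.61 between the slides. *Rap1a* and *Rab20* were among 6 genes of the list that were not detected on enough arrays.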

How the data were processed

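Total RNA of 8 samples, 4 Ac-LDL and 4 control, was labelled with biotin and hybridised to Illumina bead chips. The authors deposited, per feature and array, the mean bead intensity on the linear scale, neither background-corrected nor normalised, from BeadStudio per the submitters' processing notes (version not given in the sources used here). They also deposited a detection p-value, a bead standard error of the intensity and, as another measure, the number of beads. Values that the authors normalised in GeneSpring were not used here, and the deposited annotation names no genome build. Its symbols were used, and for 16 of 17 member features a RefSeq transcript accession gave the same name.

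Intensities were corrected with the normexp model, with an offset of 16 and negative controls estimated through the detection p-values, quantile normalised and put on the log2 scale (neqc, limma 3.58.1, R 4.3.3). Features detected (p-value at most 0.05) on at least 4 of 8 arrays were fitted with lmFit and eBayes by group, with Benjamini-Hochberg adjustment over all 17122. A gene was given by its tested feature with the highest mean. Single genes were also given an exact two-sided permutation test over 70 assignments. Intervals are 95% intervals of the moderated fit. The scripts were tested on simulated data.

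The members, the gene lists and the rule for named genes (all members; called genes and the 3 with the lowest P in both other lists; *Fdps*, *Idi1* and *Fdft1* of the supply list, in which a further gene is not reported here) were chosen with earlier results of these data known. Genes named beyond it were chosen after their values were seen. A comparison of *Ggps1* with *Fdps*, and genes most like *Ggps1*, were planned and could not be had without a *Ggps1* signal. The number of arrays limits the precision.

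Replicate numbers were checked for pairing: across features, deviations of same-numbered arrays from their group means correlated at 0.579, 0.479, 0.468 and 0.629. The number was used as a block in a second fit, which had been planned as an alternative. Arrays of different number on the same slide correlated at 0.188 to 0.447, so the block also takes in the slide.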

Additional observations from a re-analysis of the deposited data

How the results depend on the processing

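Across 24 alternatives (no background correction, offset 50, median scaling, cyclic loess, other detection filters, a replicate block, a slide block, each slide alone, the methods' *t*-test, an intensity trend, and left-out arrays or replicate numbers), 0 of the 8 genes were called in any. The lowest adjusted *P* of any of them was 0.393 and the largest absolute log2 change 0.319. Of 196 values of single genes, 177 kept their direction and 19 reversed, 12 of these with arrays left out. The other detection filters, both blocks, the *t*-test and the intensity trend leave a gene's estimated change as it was. Their values among the 177 therefore kept their direction by construction. *Fnta* was -0.13 by its other feature, -0.10 with median scaling, -0.021 on slide 2 and between -0.023 and 0.056 with arrays left out. *Rabggtb* was 0.028 on slide 2 and -0.078 to 0.030 with arrays left out, *Dhdds* 0.17 on slide 1 and -0.21 to 0.058 with arrays left out, *Icmt* 0.061 on slide 2 and -0.10 to 0.010 with arrays left out, and *Rce1* 0.033 on slide 2 and -0.14 to 0.0050 with arrays left out. *Rabggta* kept its direction (-0.17 to -0.040 with arrays left out), as did *Pdss1* (0.10 to 0.25) and *Fntb* (0.11 to 0.22, and 0.024 with median scaling). Without background correction or with an offset of 50, *Fntb* and not *Pdss1* had the largest change. The cause was not tested. Median scaling moved the median of all tested features to -0.09, and relative to that median the 8 genes lay between -0.14 and 0.20.

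Over all features, 7 were called. The count was 26 with median scaling (1 higher and 25 lower, against 1 and 6), 76 with the replicate block, 55 with the slide block, 41 on slide 1, 14 on slide 2, 15 with an intensity trend, 0 without a detection filter, 0 by the *t*-test (1039 at an unadjusted *P* under 0.05, 891 by limma) and 0 to 15 with arrays left out. By the brightest feature of each gene, the replicate block changed no other call among the genes named, except that of *Sqle*. The difference between the changes of *Fdps* and *Fntb* was -1.33 on slide 1 and -2.38 on slide 2 and -2.07 to -1.66 with arrays left out. Dim features limit *Ggps1* and *Pggt1b*, which gave no value under any setting that requires detection.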
